A study of Mus musculus with 4 samples.

Results

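Ribosomal protein genes were followed in single haematopoietic stem cells (HSCs) of mouse bone marrow. The genes were taken by symbol, as rows of the count table that begin with Rpl or Rps and a digit, without the 7 rows that carry "-ps" and without the 10 Rps6k kinase genes. This gave 79 of 13742 rows, of which 32 encode small-subunit proteins and 46 encode large-subunit proteins or their paralogs. The remaining row is Rps19bp1, which encodes a protein that binds Rps19 and is no ribosomal protein. All cells came from wild-type mice aged 8 weeks and were sorted as EPCR+ (CD201+) Lin- Kit+ Sca1+ CD150+ CD48- cells, called ESLAM SK, from both a CD27- and a CD27+ gate. No label gives the gate of a single cell, so the 4 libraries form 1 group. Whether each library had its own mice is not stated. A p-value here reflects how a difference within libraries varies between them, and that spread can be technical in part or whole. Of 297 cells, 277 were used (74, 67, 71 and 65 in libraries 1 to 4). Another 5 cells fell below 10000 counts or 1000 genes, and the 16 cells of a run of 8 in library 2 and a run of 8 in library 4 were left out, 15 of which passed the other filters. Libraries held between 5250569 and 10603714 counts, and the median cell of a library held between 65416 and 151365. No cell name was repeated, no 2 cells had identical counts, and no 2 libraries agreed within sampling noise.

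The sort was checked against marker genes. All 8 HSC markers searched (Procr, Ly6a, Kit, Slamf1, Mecom, Hlf, Fgd5 and Mllt3) were in the table, with a summed level of 2565 ± 150 CPM (counts scaled to a library total of 1000000, SD, n = 4 libraries, range 2416 to 2767). Markers of B cells (6 of 10 in the table) summed to between 93.9 and 109.4 CPM, of T and NK cells (7 of 12) to between 41.9 and 124.2, of macrophages (3 of 8) to between 12.5 and 33.7 and of stromal cells (8 of 8) to between 6.59 and 46.3. Of the 8 mast cell and basophil markers only Cpa3 was in the table, at 0.0675 CPM. Endothelial markers, several of which HSCs also express, summed to between 442 and 646 CPM, with Egfl7 highest at 226 CPM.

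The ribosome joins a small subunit, which reads the message, to a large subunit, which forms the peptide bond, and nearly all ribosomal proteins are needed in a single copy per ribosome. Their messages are among the most abundant of a cell and typically begin with a cytosine followed by a run of pyrimidines, the terminal oligopyrimidine (TOP) tract, through which mTOR signalling controls their translation. HSCs are known for a low rate of protein synthesis, and loss of a single copy of any of several ribosomal protein genes causes Diamond-Blackfan anaemia, a failure of red cell production.

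Start-site sequence was read for the genes with a RefSeq window on GRCm38.p6. Windows were found for 60 of the 79 genes. The sequences below run from 10 bases before to 20 bases after the annotated start, on the gene's strand, with the longest run of C and T that begins with C in capitals. They were chosen to show 4 of the most abundant genes and 3 of the least abundant ones. The elongation factor gene Eef1a1 is shown from outside the family.
Rpl13: tttcgCCTgattttgattggcgtttgagat
Rps27: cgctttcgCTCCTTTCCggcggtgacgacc
Rps7: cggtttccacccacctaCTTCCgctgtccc
Rps9: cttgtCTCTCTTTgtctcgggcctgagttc
Rpl13a: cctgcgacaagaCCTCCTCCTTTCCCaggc
Rpl7a: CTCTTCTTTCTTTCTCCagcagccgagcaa
Rpl24: gctgttgctaggaaacagactgggcgCTCg
Eef1a1: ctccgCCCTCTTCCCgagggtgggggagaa

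These windows lie at chr8:123102340-123102369 (plus strand) for Rpl13, chr3:90213629-90213658 (minus) for Rps27, chr12:28635934-28635963 (minus) for Rps7 and chr7:3704031-3704060 (plus) for Rps9. They lie at chr7:45128726-45128755 (minus) for Rpl13a, chr2:26910797-26910826 (plus) for Rpl7a, chr16:55966265-55966294 (plus) for Rpl24 and chr9:78481705-78481734 (minus) for Eef1a1. A run of at least 6 such bases was found in 35 of the 60 windows (58.3%), in 16 of 24 small-subunit genes and 19 of 35 large-subunit genes. The same run was found in 26.2% of 10619 other rows of the table with a window and in 24.9% of all 27025 genes with one. Among the printed windows, Rpl7a and Rpl13a carry runs of 17 and 14 bases and were among the lowest genes in the counts, whereas Rpl13, the highest, has a run of 3 bases in its window. A window without a run says only that these letters are not next to the annotated start. A run can lie anywhere in its window, so it need not be the TOP tract of the message.

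Ribosomal protein genes took 18.5% ± 0.47 of the counts of the median cell (SD, n = 4 libraries), with library medians of 18.2%, 18.1%, 18.8% and 19.1%. Single cells ran from 10.4% to 28.6%, and 232 of 277 cells lay between 15% and 22%. The coefficient of variation (CV) between cells was 14.2% ± 1.6. Small-subunit genes gave 0.925 ± 0.018 counts for each large-subunit count in the median cell, with library values between 0.910 and 0.951. This ratio of counts varied between cells with a CV of 8.55% ± 1.2, less than the share itself in the mean over libraries. Across the cells of a library the small-subunit and large-subunit shares were correlated, with Spearman rho of 0.83 on average (0.77 to 0.85, n = 65 to 74 cells). Both shares have the same denominator, the total counts of the cell. The ratio sums 32 small-subunit genes against 46 large-subunit genes and is not a ratio per gene. The median gene was at 2526 CPM in the small subunit and 1933 CPM in the large. The symbol rule leaves out 6 ribosomal proteins with other names (such as Rplp0, Rpsa and Fau), and with them, and without Rps19bp1, the share was 20.3% ± 0.57 and the ratio 0.852 ± 0.014.

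**Figure D1:**
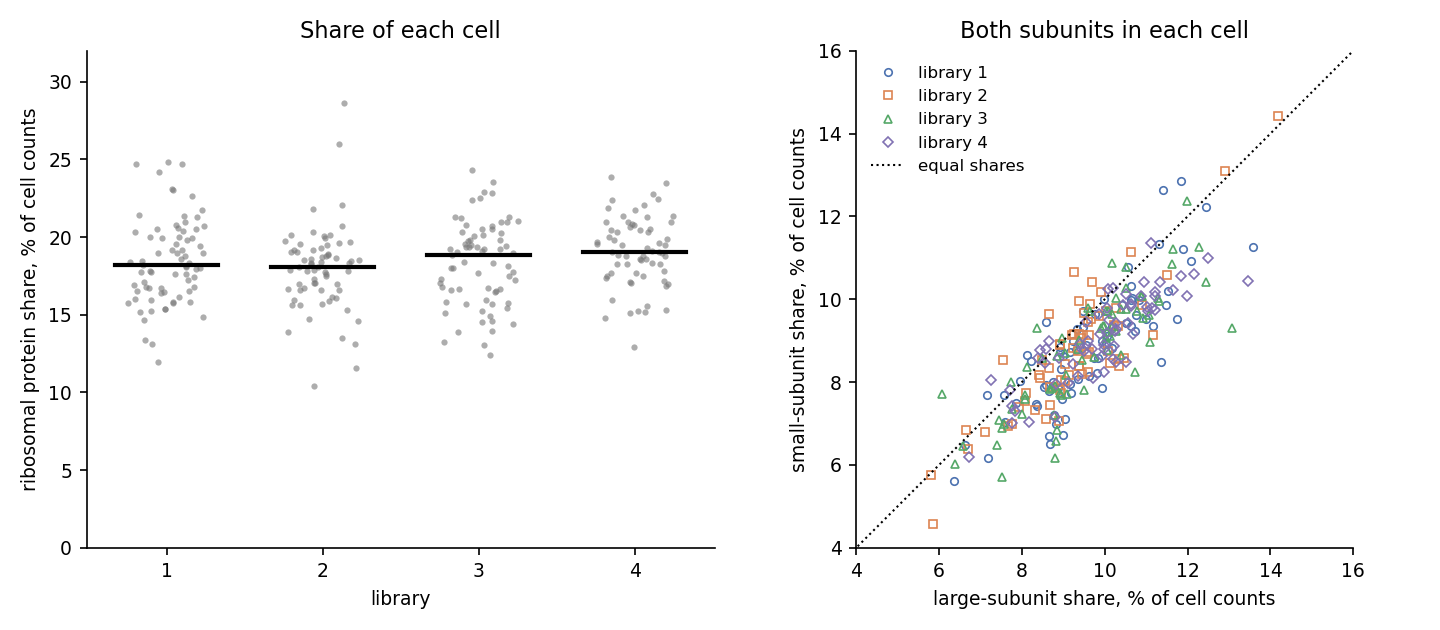
Left, ribosomal protein share (% of a cell's counts) of each of 277 cells by library, with bars at the library medians. Right, small-subunit share against large-subunit share of the same cells, both in % of counts, with a dotted line of equal shares. Medians sit between 18.1% and 19.1%, and most cells lie just below the line.

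Levels of single genes spanned 3 orders of magnitude. Counts were summed per library and scaled to CPM, and since the protocol enriches 3′ ends, levels are not divided by length unless stated. Of the 79 genes, 64 reached 1000 CPM, and the middle 50% lay between 1288 and 3325. A count was found in all 277 cells for 53 genes. The median gene was at 2052 CPM, and the 10 highest genes held 28.2% of the family's counts. The level of a gene varied little between libraries, with a median CV of 4.98%. In the order of levels, 69 genes had library values that overlapped those of the next gene down, so that most neighbours in the order did not differ beyond their spread.

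Among large-subunit genes, Rpl13 was highest at 7423, 7209, 7136 and 7625 CPM in libraries 1 to 4. Of other high genes, Rpl37 (4115 ± 131), Rpl32 (4006 ± 166) and Rpl4 (3982 ± 153 CPM), core proteins of the large subunit, overlapped one another. Lower levels were found for Rpl37a (3657 ± 171), Rpl36 (3530 ± 279) and Rpl14 (3482 ± 196 CPM). Among small-subunit genes, Rps27 was highest at 6302, 6112, 6304 and 5900 CPM. It stood above all other small-subunit genes in every library. Rps14, which is lost in a myelodysplastic syndrome, had 4818, 4781, 4917 and 5145 CPM, and Rps7, Rps29 and Rps9 lay at 4868 ± 81, 4839 ± 241 and 4771 ± 182. Rps14, Rps7, Rps29 and Rps9 overlapped. Rps28 (4307 ± 235), Rps3 (3944 ± 191) and Rps19 (3689 ± 348 CPM), the gene most often mutated in Diamond-Blackfan anaemia, completed the 8 highest of this subunit.

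**Figure D2:**
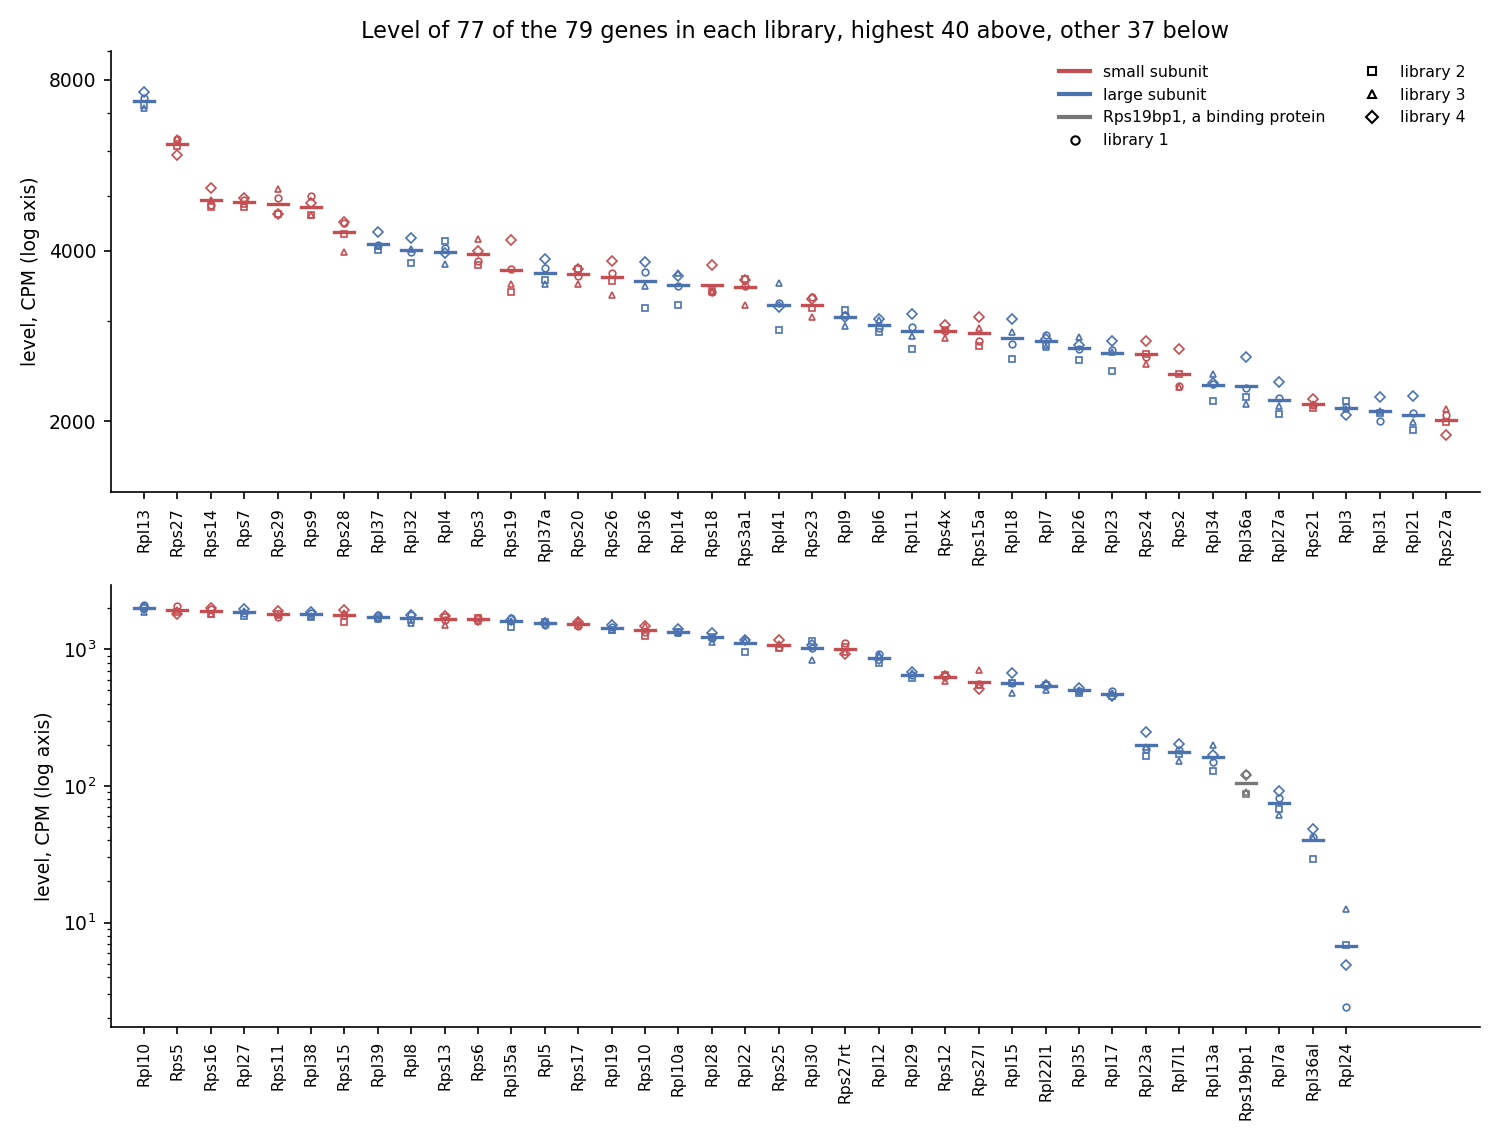
Level of each gene in CPM (log axes) in libraries 1 to 4 (symbols) with the mean over libraries (bars), for 77 of the 79 genes, the 40 highest of these above and the other 37 below. Rpl13 leads at 7348 CPM, levels fall slowly to Rpl17 at 473 CPM, and the 7 genes to its right end with Rpl24 at 6.69 CPM.

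Divided by the length of 1 annotated transcript per gene, the order changed in part (Spearman rho 0.81 between both orders over 79 genes). Rps27 was then highest at 17839 CPM per kilobase, followed by Rps29 (12407), Rps28 (11275) and Rpl13 (9421 CPM per kilobase), and Rpl24 was lowest at 9.88 CPM per kilobase on that scale. Rps27, Rps29 and Rps28 have transcripts of 345, 390 and 382 bases, against a median of 751 for the family.

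Large-subunit genes made up the lower end. Rpl24 had 2.43, 6.85, 12.6 and 4.90 CPM and a count in 18.8% of cells. Next came Rpl36al (40.3 ± 8.1), Rpl7a (75.7 ± 14), Rpl13a (162 ± 31), Rpl7l1 (177 ± 22) and Rpl23a (198 ± 36 CPM). The lowest small-subunit genes were far higher, with Rps27l at 582 ± 85 CPM, Rps12 at 628 ± 29, Rps27rt at 1003 ± 88 and Rps25 at 1081 ± 67. Gene models and near copies that reads could share were listed beside these levels. In GENCODE M21, the last 300 bases of the Rpl24 transcript overlap Gm28037 on the same strand over 58.3% of their length, and those of Rpl36al overlap Gm49383 over 69%. Rps10 has such an overlap too (RPS10-NUDT3, 70.3%), and was counted at 1387 ± 115 CPM. Near copies were searched with the same last 300 bases of 1 transcript per gene, so their number depends on the transcript end chosen. Rpl7a has 48 near copies elsewhere among annotated transcripts (at least 95% identity over at least 100 bases), and Rpl23a has 24, with Tlcd1 across its whole 300-base window on the opposite strand. Rpl13a has neither an overlap in the window nor a near copy of the window, though a row named after it, Rpl13a-ps1, was at 5.91 CPM. How reads with several possible origins were counted is not stated, and the part of overlaps and copies in these levels was not tested. Across the family, the level had a Spearman rho of -0.24 with the number of copies (79 genes, which are not independent), with medians of 2886 CPM for the 19 genes without a copy, 1797 CPM for the 18 genes with 1 to 4 and 2002 CPM for the 42 genes with 5 or more.

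The 7 rows marked "-ps", processed copies named after a parent gene, were at 5.91 to 249 CPM. Rpl9-ps6 was highest at 254, 229, 249 and 265 CPM, 8.16% of Rpl9, and it was found in all cells. In cells thinned at random to 30000 counts, its count followed that of Rpl9 with rho values of 0.66, 0.52, 0.65 and 0.58 in libraries 1 to 4. Rpl7a-ps5 reached 62.9% of the level of Rpl7a (47.6 against 75.7 CPM), with a mean rho of 0.20. Reads of a parent and its copy cannot be told apart where their sequences agree.

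Levels of ribosomal proteins outside the symbol rule were read in the same way. Rplp1 and Rplp0, of the stalk that recruits elongation factors, were at 5652 ± 262 and 4746 ± 159 CPM, and Rplp2 at 2553 ± 190. Fau, a fusion gene that encodes Rps30, was at 2580 ± 146 and Rpsa at 1849 ± 94 CPM. Rack1, a scaffold on the small subunit, was at 1164 ± 68 CPM.

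Paralogs were expressed beside their main gene, at lower levels in each of the 5 pairs that both had a row (Rpl39l, Rpl3l, Rpl10l and Rps4l had none). Rpl22 was at 2.07 ± 0.21 times the counts of Rpl22l1, whose product can take the place of Rpl22 in the ribosome, with ratios of 2.14, 1.76, 2.25 and 2.12. Per kilobase the pair was at 2348 and 1026 CPM. Rpl22l1 exceeded Rpl22 in 58 of 277 cells, and across cells the pair had a mean rho of -0.04. Rps27 was at 10.7 ± 1.2 times the counts of Rps27l, a p53 target gene, and at 6.16 ± 0.45 times those of Rps27rt. Rps27 and the single-exon gene Rps27rt share stretches of identical sequence, and their counts had the highest mean rho of the paralog pairs, 0.40, whereas Rps27l had a mean rho of -0.06 with Rps27. Rpl36a was at 58.8 ± 11 times the counts of Rpl36al, and Rpl7 at 15.7 ± 1.7 times those of Rpl7l1, with mean rho values of -0.14 and -0.11.

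Variation between cells was smaller for the family than for other genes of like level. In cells thinned to 30000 counts (264 cells), the 64 members at 1000 to 8000 CPM had a median CV of 36.6%, against 51.7% for the 60 other genes in that range. The gap was present in each band of level. Medians were 45.4% against 54.3% at 1000 to 2000 CPM, 34.7% against 43.9% at 2000 to 4000 and 27.3% against 40.1% at 4000 to 8000. Counting error falls with level and is part of all these values. No test was made, since genes of 1 family are not independent. Of the other genes in the range, the lowest CVs belonged to Rplp0 (27.0%), Eef1a1 (28.1%), Rplp1 (28.8%) and Fau (35.2%), all of the translation machinery, followed by H2-K1 (36.1%).

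**Figure D3:**
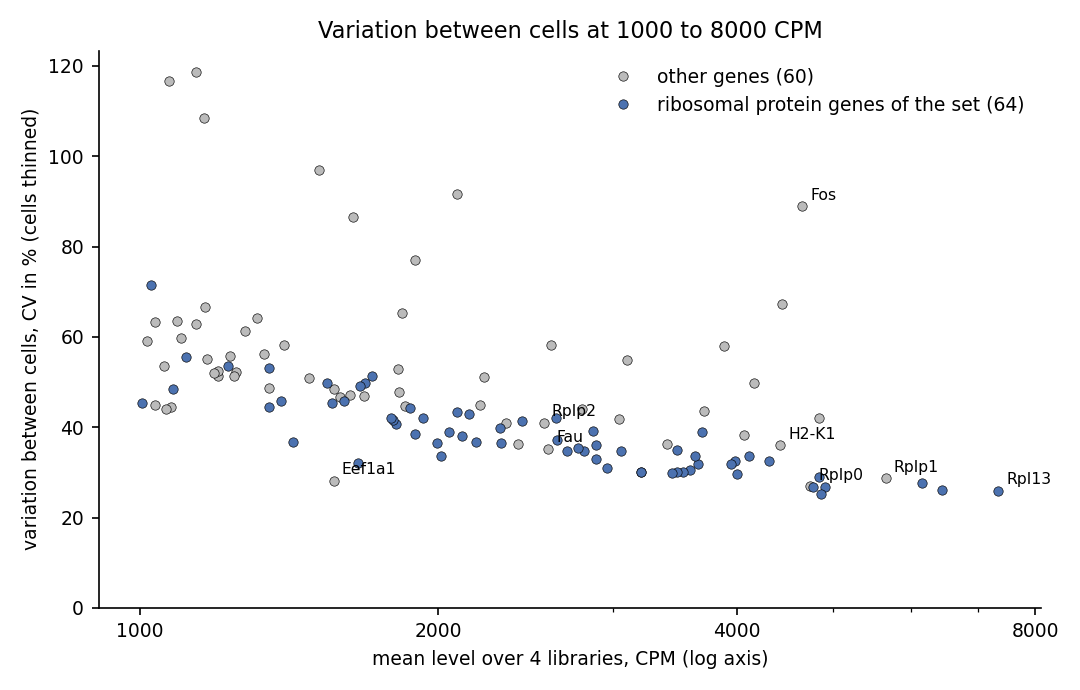
Variation between cells (CV in %, mean over libraries of cells thinned to 30000 counts) against mean level (CPM, log axis) for genes at 1000 to 8000 CPM. The 64 ribosomal protein genes (blue) lie along the lower edge of the cloud with a median of 36.6%, the 60 other genes (grey) have a median of 51.7%, and Rplp0, Rplp1 and Eef1a1 lie among the blue points.

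Single members differed in how constant a part of the family they formed. Among the parts that varied least between libraries were those of Rpl37 (CV 1.04%), Rps7 (1.09%), Rpl13 (1.15%) and Rpl38 (1.19%). The most variable between libraries were Rpl24 (65.7%), Rpl13a (19%), Rpl36al (18%), Rps19bp1 (16.3%) and Rps27l (16%). Between cells, here without thinning, Rps29 (21.8%), Rps7 (21.9%), Rpl13 (22.9%) and Rps14 (24.2%) were among the least variable. Rpl24 (366%), Rps19bp1 (194%), Rpl7a (153%), Rpl13a (130%) and Rpl7l1 (128%) varied most, and all of these have few counts per cell. Rps27l had a high variation between cells, 81.4%, at 582 CPM, above that of Rps12 (69.4%), which has a like level. The genes also differed in how far they followed the rest of the family. The mean rho of a gene with the share of the other members ran from 0.53 (Rps29), 0.51 (Rps20) and 0.50 (Rpl32) down to -0.16 (Rpl7l1), -0.09 (Rpl36al) and -0.03 (Rpl22l1), and was positive for 75 of 79. Among all 3003 pairs of the 78 subunit genes, the median rho was 0.11, and the highest were 0.44 between Rps20 and Rpl37a and 0.42 between Rps29 and Rpl37a.

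So that the choice of cells did not use the genes tested, each subunit's genes were read in cells chosen by the other subunit. In each library, the cells were cut into 3 equal parts by large-subunit share, and those of the top part (11% ± 0.47 of counts) were compared with those of the bottom part (8.16% ± 0.31), as 8 sums of counts from 4 libraries. Levels in this comparison are CPM of the counts outside the family, a denominator that both subunits share. All 32 small-subunit genes had a positive log2 difference, with a median of 0.50, against -0.007 for the 9352 other genes tested. In edgeR's quasi-likelihood test with Benjamini-Hochberg adjustment over all 9385 genes, 18 of 32 passed the threshold of 0.05 as higher and 0 as lower, also at an unadjusted p under 0.05 and in DESeq2, which called 30 as higher. Of all genes tested, 0.234% were called higher and 0% lower, and 2.59% and 1.91% had an unadjusted p under 0.05 in these directions. The sums of high-share and low-share cells did not overlap for 28 of the 32, against 2.01% of all genes that were higher and 1.69% that were lower.

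Rps12 had 1036, 1016, 919 and 1112 CPM in high-share cells and 609, 546, 509 and 569 CPM in low-share cells of libraries 1 to 4. Every high sum was above every low sum, and the log2 difference was 0.90 ± 0.14 (SE, edgeR adjusted p = 0.0140). With a library left out in turn, Rps12 was called in 0 of 4 fits. Rps12 has 21 near copies in the annotation, one of which is a row of the table. Rps15a (0.72 ± 0.094, adjusted p = 0.00776) and Rps13 (0.68 ± 0.10, adjusted p = 0.0140 in edgeR), proteins of the small-subunit body and platform, came next. Rps15a had 4383, 4170, 3992 and 4689 CPM in high-share cells and 2584, 2239, 2923 and 3045 CPM in low-share cells. Rps24, Rps16, Rps20 and Rps3a1 followed with log2 differences between 0.61 and 0.66. The genes of highest level had smaller log2 differences, with 0.50 ± 0.067 for Rps14, 0.48 ± 0.067 for Rps7 and 0.41 ± 0.061 for Rps27, all of which passed. At the lower end were the paralog Rps27l (0.28 ± 0.15, edgeR adjusted p = 0.999) and Rps2 (0.20 ± 0.10, adjusted p = 0.999 in edgeR), which did not pass. Rps27l was at 809, 723, 696 and 810 CPM in high-share cells and at 660, 708, 664 and 542 CPM in low-share cells, and these overlapped.

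In the reverse comparison, cells in the top part by small-subunit share (10.2% ± 0.16) were set against those in the bottom part (7.43% ± 0.38). Of 46 large-subunit genes, 21 passed as higher and 0 as lower in edgeR, with 0 lower at an unadjusted p under 0.05 as well, and DESeq2 called 33 as higher. Of all 9362 genes tested, 0.267% were called higher and 0.0107% lower, and 2.56% and 1.98% had an unadjusted p under 0.05 in these directions. The log2 difference was positive for 44 genes, with a median of 0.48, against -0.002 for the 9315 other genes, and sums did not overlap for 35, against 2.01% of all genes that were higher and 1.78% that were lower. Rpl30, which also binds selenocysteine messages, had 1514, 1695, 1574 and 2241 CPM in high-share cells and 947, 1236, 551 and 990 CPM in low-share cells. It showed the largest log2 difference, 0.98 ± 0.16 (edgeR adjusted p = 0.0308), and has 12 near copies in the annotation. With a library left out in turn, Rpl30 was called in 1 of 4 fits. Of the genes that passed, Rpl36a (0.70 ± 0.10, edgeR adjusted p = 0.0148) and Rpl37a (0.66 ± 0.085, adjusted p = 0.00949) followed. Rpl37a had 5472, 5357, 5345 and 5234 CPM in high-share cells against 3506, 3401, 2955 and 3940 CPM. Rpl10a, Rpl8, Rpl21 and Rpl31 had log2 differences of 0.59 to 0.64, and the most abundant gene, Rpl13, one of 0.47 ± 0.069.

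**Figure D4:**
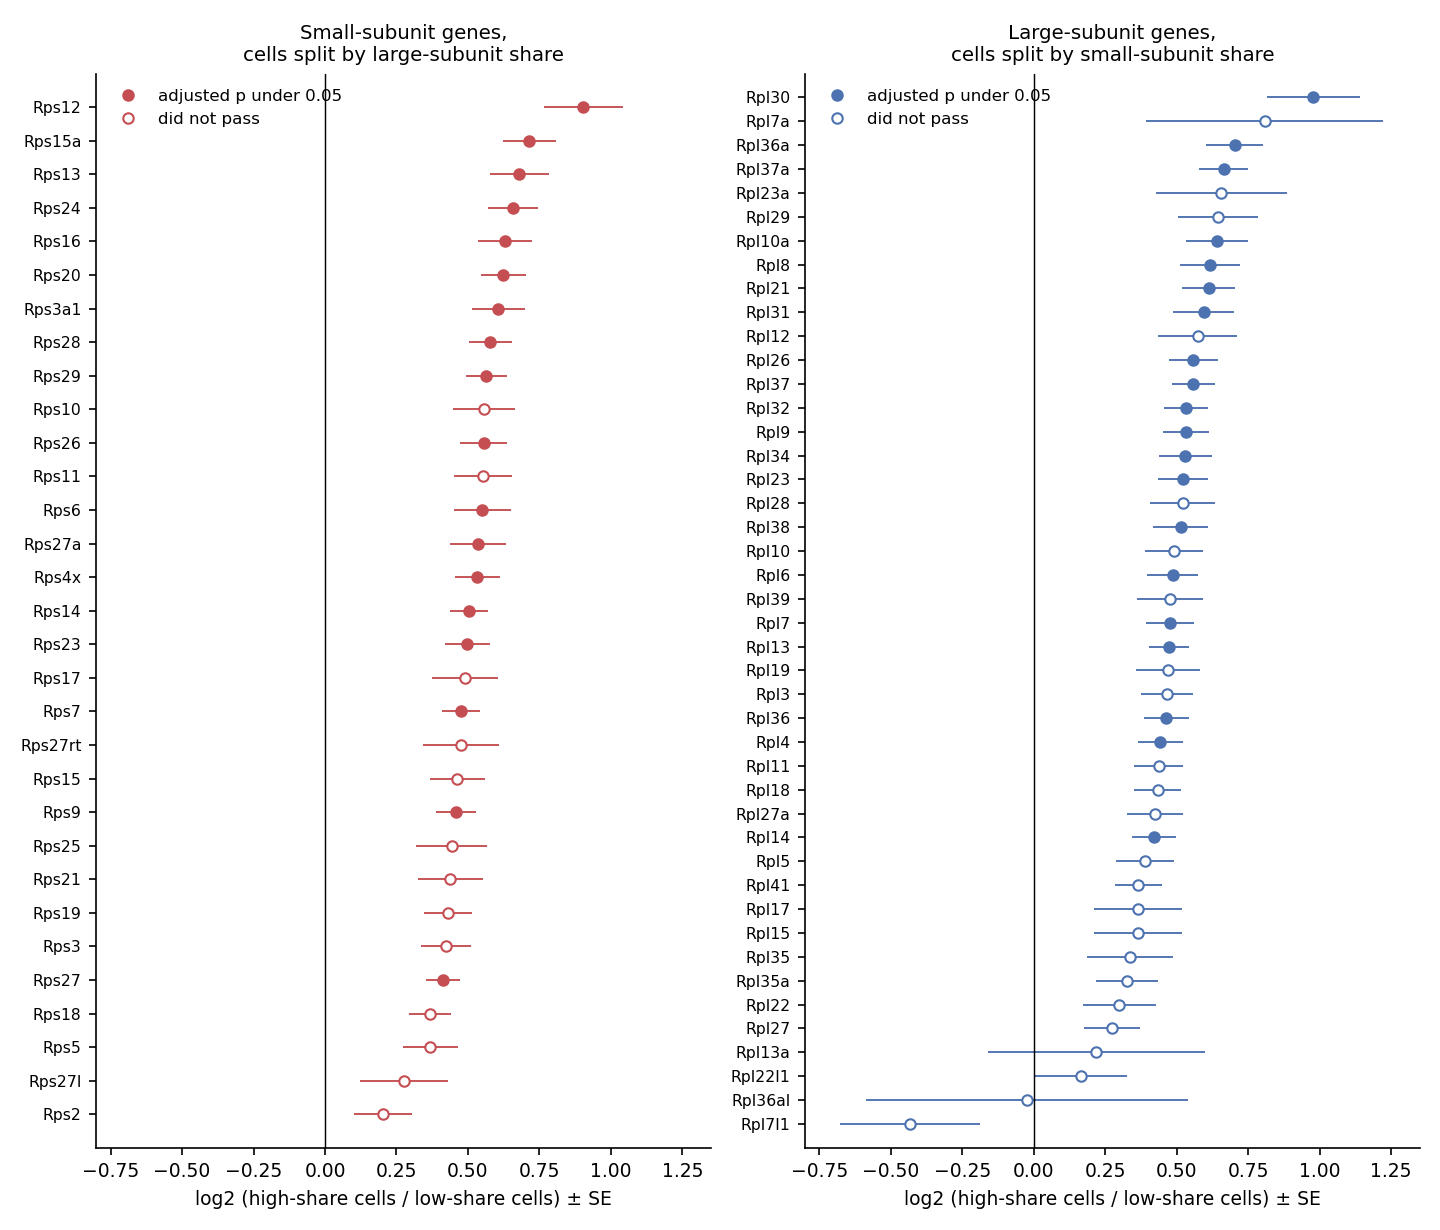
Log2 difference (± SE from edgeR) between cells of high and low share of the other subunit, for 31 small-subunit genes (left) and 44 large-subunit genes (right). Rpl24, whose SE exceeds 1, is not drawn. Filled points passed an adjusted p of 0.05. All small-subunit points drawn are above 0, and on the right Rpl7l1 (-0.43) and Rpl36al (-0.02) are below it.

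Paralogs of the large subunit did not pass the test. Rpl7l1 was at 212, 186, 156 and 186 CPM in high-share cells and 258, 312, 162 and 309 CPM in low-share cells. It was lower in 4 of 4 libraries, and its log2 difference of -0.43 ± 0.24 did not pass (adjusted p = 1.00 in edgeR and between 0.692, in DESeq2, and 1 over the alternatives), whereas Rpl7 rose by 0.48 ± 0.085. Rpl22l1 differed by 0.16 ± 0.16 and Rpl22 by 0.30 ± 0.13, neither of which passed. Rpl36al differed by -0.02 ± 0.56 against 0.70 for Rpl36a. The difference between a paralog and its main gene was not tested. Counts of the paralogs are low, which widens their SE.

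Genes of Diamond-Blackfan anaemia and of the myelodysplastic syndrome were read in the same fits. Of these 18 genes, 8 were called higher in edgeR (Rps7, Rps14, Rps24, Rps26, Rps28, Rps29, Rpl26 and Rpl31) and 0 lower, which is 44.4% against 50% of all 78 subunit genes (39 called), with a median log2 difference of 0.48 against 0.49 for all of them. Rps19 differed by 0.43 ± 0.084 and did not pass (edgeR adjusted p = 0.0844). Its levels were 5855, 4531, 4537 and 5632 CPM in high-share cells and 3797, 3386, 3783 and 4621 CPM in low-share cells, which overlapped. Rpl5 and Rpl11, which bind Mdm2 when ribosome assembly fails, had log2 differences of 0.39 and 0.44 and did not pass. Members with and without a run of at least 6 pyrimidines in the start window had like values. The run can lie anywhere in the window, so these classes are not TOP and non-TOP messages. The median log2 difference was 0.476 for 35 genes with a run, 15 of them called, and 0.475 for 24 genes without, 13 of them called.

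Few genes outside the set were called with these splits. Among them, Rplp1, Rplp0, Fau and the nucleolar chaperone gene Npm1 were higher with large-subunit share, and Rplp1, Rplp0, Fau and Rpsa with small-subunit share. With 1 library left out in turn, the call of Rplp1 held in 2 of 4 with large-subunit share and 3 of 4 with small-subunit share. Fau and Npm1 were called in 0 of 4 with large-subunit share, and Rplp0, Rpsa and Fau in 1 of 4 with small-subunit share.

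The number of calls rested on single libraries, while the sizes of the differences moved less. Without library 1, 2, 3 or 4 in turn, edgeR called 0, 13, 1 and 9 small-subunit genes and 0, 22, 0 and 1 large-subunit genes, whereas the median log2 difference stayed between 0.49 and 0.53 and between 0.45 and 0.51. Without library 1, 30 small-subunit genes and 34 large-subunit genes had an unadjusted p under 0.05. Splitting cells at the median in place of 3 parts left 7 large-subunit genes called.

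Cell numbers moved with the share and touch these results. Cells are numbered from 1 to 94 within a library, and 90 of 91 numbers in use occur in at least 2 libraries. What a number stands for (a barcode, a tube position or a gate) is not stated in the labels. Cells with the same number had a like ribosomal protein share in different libraries, with a mean Spearman rho of 0.30 (0.25 to 0.37 over 6 pairs of libraries). For total counts the mean rho was 0.47, and the ratio of small to large subunit had a mean rho of 0.03. Cell number 71 had shares of 11.6%, 13.1% and 12.9% in libraries 2, 3 and 4, and number 89 had 14.9%, 10.4% and 12.4% in libraries 1, 2 and 3. At the upper end, number 15 had 23%, 26% and 21.3% in libraries 1, 2 and 3, and number 40 was less even, with 19%, 28.6% and 22.1% in libraries 1, 2 and 4. These are the 2 numbers of lowest and the 2 of highest mean deviation, chosen after their values were seen. When each cell's share was lowered by the mean deviation of its same-numbered cells before the split, 0 small-subunit and 0 large-subunit genes were called in edgeR (28 and 23 with an unadjusted p under 0.05). The median log2 differences were 0.30 and 0.25, positive for 32 of 32 and 42 of 45 genes. The cells chosen that way also differed less in the share used for the split, by 1.85 and 1.59 percentage points against 2.80 and 2.77. Barcode, position and gate cannot be told apart here.

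**Figure D5:**
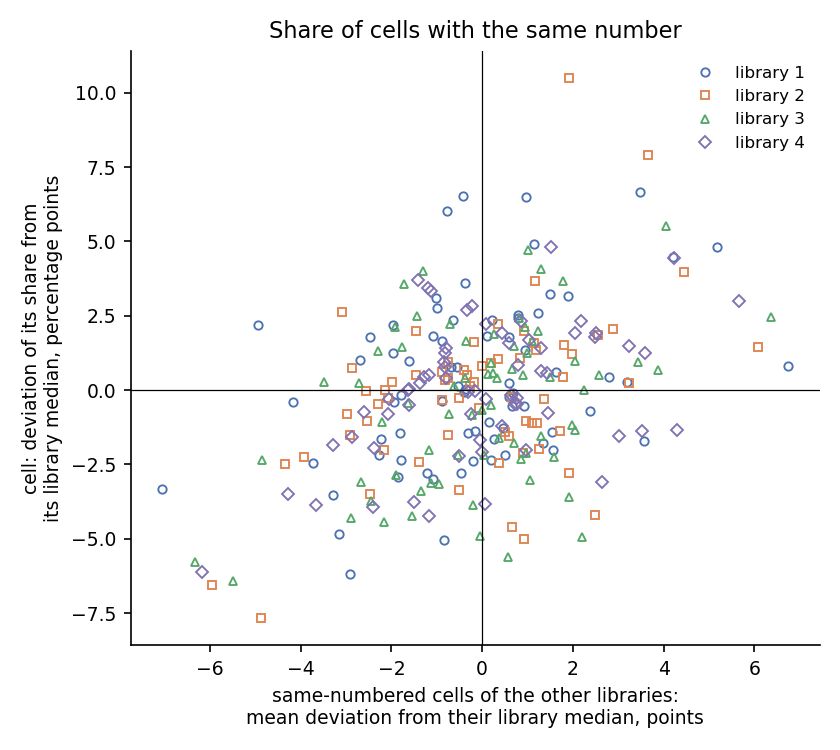
Deviation of each cell's ribosomal protein share from its library median (vertical axis, percentage points) against the mean deviation of the cells with the same number in the other libraries (horizontal axis, points), with symbols by library. Number 71 lies at the lower left in libraries 2, 3 and 4, and number 15 at the upper right in libraries 1, 2 and 3.

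Cells of high and low total share were then compared for genes outside the set. High-share cells (top part, 21.1% ± 0.71 of counts) and low-share cells (bottom part, 15.6% ± 0.71) differed little in depth in libraries 1 to 3, with medians of 85247 against 91574, 117527 against 118932 and 63479 against 65255 counts. In library 4, high-share cells were shallower (125835 against 165467). No gene passed in edgeR, with 0 of 9323 genes higher and 0 lower (0% called in each direction), and 205 and 188 with an unadjusted p under 0.05, which is 2.20% and 2.02%. In simulated sums with known changes, this fit recovered 11 of 100 genes changed by log2 1. The lack of calls therefore does not show a lack of differences. DESeq2 called 85 higher and 85 lower, 0.912% each way. Sums did not overlap for 1.84% of genes as higher and 1.75% as lower.

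The lowest p-value belonged to Rplp1, which was at 8235, 7812, 9458 and 8267 CPM of counts outside the set in high-share cells and at 5731, 5176, 5501 and 6188 CPM in low-share cells. These did not overlap, and the log2 difference was 0.60 ± 0.083 (edgeR adjusted p = 0.0766, between 7.52e-11 and 0.641 over the alternatives). Rplp0 (0.49 ± 0.084), Rpsa (0.60 ± 0.11), Fau (0.52 ± 0.099) and Rplp2 (0.43 ± 0.097) had positive differences as well, in 4 of 4 libraries, and passed in DESeq2 but not in edgeR. The median over the 5 ribosomal proteins outside the symbol rule that were tested was 0.52, against -0.014 for all genes. Npm1, which shuttles ribosomal proteins in the nucleolus, differed by 0.65 ± 0.12 and Eef1b2, the exchange factor of Eef1a1, by 0.69 ± 0.14, without passing in edgeR (adjusted p = 0.278 and 0.326). Klf6 (-0.85 ± 0.20), an early-response transcription factor gene, was lower in 4 of 4 libraries and did not pass in edgeR (adjusted p = 0.901). Npm1 and Eef1b2 come from fixed lists, and Klf6 was chosen after its values were seen.

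In the fit over 4 libraries, most genes of oxidative phosphorylation had positive log2 differences and most early-response genes had negative ones. Elongation and initiation factors and ribosome biogenesis genes were close to evenly split, as were all genes tested. In edgeR no gene of any list passed the threshold, whereas DESeq2 called 21 list genes. These were all 5 ribosomal proteins outside the symbol rule that were tested, Eef1a1, Eef1b2, Eef1g, Naca, Npm1, Mrps35, Atp5e, mt-Co1, Ifitm1, Blvrb and Ifi27 as higher and Junb, Klf6, Calr, Cenpf and Top2a as lower. Of 32 elongation and initiation factors, 18 had a positive log2 difference (median 0.07), and 4 had an unadjusted p under 0.05, all higher (Eef1a1, Eef1b2, Eef1g and Eif4b). In libraries 1 to 4, 10, 10, 13 and 17 of the 32 were lower in high-share cells. Of 11 other TOP messages and translation partners, 9 were positive (median 0.14), among them Naca and Rack1 at 0.34 ± 0.12 and 0.38 ± 0.14. Nuclear genes of oxidative phosphorylation were positive for 57 of 79 (median 0.12), mitochondrially encoded genes for 10 of 11 (median 0.18) and the mitochondrial ribosome for 46 of 74 (median 0.10). Single libraries were closer to even. Of the 79 nuclear genes, 33, 37, 31 and 32 were lower in high-share cells of libraries 1 to 4. For the 74 genes of the mitochondrial ribosome these counts were 35, 36, 30 and 31. Ribosome biogenesis genes were positive for 29 of 52 (median 0.06), with Ncl at 0.24 ± 0.16, and 19, 27, 28 and 28 of the 52 were lower in high-share cells of libraries 1 to 4. Of 28 genes of Myc, mTOR and TOP control, 12 were positive (median -0.10), with Myc at -0.41 ± 0.32. Immediate early genes were negative for 19 of 22 (median -0.49). Dusp1 (-0.48 ± 0.18) and Ier2 (-0.49 ± 0.17) had an unadjusted p under 0.05, and Fos and Jun were at -0.30 ± 0.15 and -0.19 ± 0.11. Library 2 stood apart, with 3 of the 22 genes lower in its high-share cells against 21, 21 and 19 in libraries 1, 3 and 4. Fos had 7883 CPM in high-share and 6150 CPM in low-share cells there, and Jun, Dusp1 and Ier2 were higher in high-share cells too. Without library 2, 21 of 22 genes were negative, with a median of -0.98. This last list is induced by tissue handling too, and whether handling plays a part was not tested. The counts for all genes tested were 4554 positive and 4769 negative.

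Cell cycle genes had mostly negative differences in the fit over 4 libraries but not in each library, and none was called in edgeR. Of 16 G2/M genes 13 were negative (median -0.61), and of 21 S-phase genes 15 were (median -0.32). In libraries 1 to 4, 15, 7, 8 and 11 of the 16 G2/M genes were lower in high-share cells. For the 21 S-phase genes these counts were 12, 16, 9 and 9. Without library 2 the S-phase median was 0.14, with 13 of 21 positive, and the G2/M median ran from -1.40 without library 2 to -0.08 without library 1. Stem cell genes were split evenly, with 14 of 29 positive (median -0.03), and Ifitm1 and Mllt3 at 0.31 ± 0.097 and -0.11 ± 0.16. Quiescence and dormancy genes were positive for 7 of 17 (median -0.23), p53 targets for 5 of 12 (-0.14) and stress-response genes for 7 of 15 (-0.10). Megakaryocyte genes were positive for 9 of 13 (median 0.39), with Gng11 at 0.39 ± 0.18. Lymphoid genes were positive for 2 of 8 (-0.20), myeloid for 1 of 7 (-0.31) and erythroid for 4 of 8 (-0.02). Glycolysis genes were positive for 10 of 14 (0.09), interferon response genes for 8 of 18 (-0.07) and antigen presentation genes for 4 of 16 (-0.34). The sign of the median also turned for ribosome biogenesis without library 1, p53 targets without library 3, stress-response genes without library 4, interferon response genes without library 1 or 2, stem cell genes without library 1, 3 or 4 and erythroid genes without any 1 library. Markers of other cell types were mostly too low to test. Of 1 B cell, 2 T and NK cell, 1 macrophage, 6 endothelial and 1 stromal marker tested, 0 passed in edgeR, also at an unadjusted p under 0.05.

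Genes outside the set were also read across single cells. Among 1718 genes outside the set that had a count in at least 50% of the cells, the mean Spearman rho with the share over 4 libraries had a median of 0.02, with 90% of genes between -0.11 and 0.15. These values are descriptions over 264 thinned cells that share their library and depth. The highest belonged to Rplp1 (0.57), Rplp0 (0.49), Fau (0.47), Rpl9-ps6 (0.45), Gm10073 (0.43), Gm11361 (0.40), Eef1a1 (0.40), Eef1b2 (0.38), Gm2000 (0.37) and mt-Co3 (0.37), all positive in 4 of 4 libraries. Gm10073, Gm11361 and Gm2000 are near copies of Rplp1, Rps18 and Rpl35, and Rpl9-ps6 is named after Rpl9, so their counts may hold reads of ribosomal protein genes, members that make up the share included. Among the lowest were Srsf5 (-0.25), Dusp1 (-0.24), Klf6 (-0.23), H3f3b (-0.22), Junb (-0.21), Ier2 (-0.19), Dbnl (-0.19), Ptpre (-0.18) and Fos (-0.18). All of these but H3f3b were negative in 4 of 4 libraries. As summed levels, the ribosomal proteins outside the symbol rule had a mean rho of 0.76, elongation and initiation factors 0.30, other TOP messages 0.30, nuclear oxidative phosphorylation 0.26 and immediate early genes -0.23. HSC identity genes (0.08), S-phase genes (-0.03) and G2/M genes (-0.03) were near 0. In all 277 cells without thinning, the share had almost no relation with total counts (mean rho -0.05) or with genes detected (0.005), with signs that differed between libraries.

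Within the family, the make-up of high-share and low-share cells was nearly the same. These values use the counts that chose the cells and are given with no test. For 50% of the members, the part of the family differed by at most 0.075 on the log2 scale in either direction. Rpl30 (0.50 ± 0.29), Rps12 (0.36 ± 0.22) and Rps15a (0.23 ± 0.17) took a larger part in high-share cells in 4 of 4 libraries. Rpl7l1 (-0.96 ± 0.079), Rpl36al (-0.77 ± 0.56), Rpl22l1 (-0.44 ± 0.22), Rps27l (-0.30 ± 0.12) and Rps2 (-0.30 ± 0.23) took a smaller part in 4 of 4. By the split itself, the family's part of all counts was 0.43 higher on the log2 scale in high-share cells. A member with an unchanged part of all counts thus falls by about that much here. In all, 9 members took a larger part and 13 a smaller part in 4 of 4 libraries, and those named are the ones of largest mean difference among them, chosen after their values were seen. Rpl7l1 was at -0.97, -1.06, -0.93 and -0.87 in libraries 1 to 4.

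Of the 5 cells of lowest share, 4 held between 122722 and 147970 counts and 1 held 67376, and the 5 of highest share held between 33493 and 111819. The part of depth in these extremes was not tested. The lowest share, 10.4% (exact 95% interval 10.3% to 10.6%, counting error only), came from a cell of library 2 with 131858 counts and 2426 genes. The highest, 28.6% (28.1% to 29.1%), came from a cell of the same library with 33493 counts, 1402 genes and 2.75% mitochondrially encoded counts, and the next, at 26%, had 41938 counts, 1172 genes and 4.58%. Those 2 cells carried few genes for this data set, where library medians were 2888 to 3239. The runs of 8 cells left out by the rule had medians of 22.4% in library 2 (8 cells) and 26.5% in library 4 (7 cells), above the median of the cells used.

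Expression of Cd27, the antigen of the sort, was set beside the share as the nearest measure of the gates. Cells with a Cd27 count had median shares of 18.5%, 18.1%, 19.1% and 19.1% in libraries 1 to 4, and cells without one had 17.7%, 18.4%, 17.9% and 18.8%. The differences, 0.81, -0.38, 1.23 and 0.34 percentage points, differed in sign between libraries. A missing count does not show that a cell came from the CD27- gate.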

How the data were processed

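RNA of single ESLAM SK HSCs was sequenced in 4 libraries by STRT-seq, here with a protocol that tags each cell's cDNA and keeps 3′ ends. The authors deposited raw counts per gene and cell. Per the submitters' processing notes, the build was GRCm38 and the tools were HTSeq 0.9.1, Trimmomatic 0.36 and HISAT2 2.1.0. Collapsing by molecular identifier, the strand setting and the treatment of reads with several origins are not given in the sources used here, so intervals and depth limits cover counting error only.

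Cells with at least 10000 counts and 1000 genes were used, without 2 runs of 8 cells. No doublet caller was run; per the labels' protocols the sort excluded doublets. Levels are CPM of counts summed per library, with SD over 4 libraries. Rank correlations of single genes and of lists across cells, and the variation of gene levels between cells, used cells thinned to 30000 counts (13 shallower cells left out). All 277 cells were used without thinning for the variation of the share, of the subunit ratio and of each member's part of the family. The same holds for the correlation of both subunit shares, for same-numbered cells, and for total counts and genes detected. High-share and low-share cells were the top and bottom of 3 equal parts of each library. Their summed counts were tested with edgeR 4.0.16 (quasi-likelihood, filterByExpr, TMM factors from genes outside the family, library as a block, Benjamini-Hochberg adjustment, two-sided), since both sums of a pair come from 1 library. DESeq2 1.42.0, other scalings, filters and splits, and leaving out each library were alternatives. The fits were tested on simulated data with known changes. For the split by whole share, 11 of 100 genes changed by log2 1 were recovered, and 68 of 100 changed by log2 2. For the splits by large-subunit and small-subunit share, 17 and 17 of 100 were recovered at log2 1, and 74 and 75 of 100 at log2 2. A gene that was not called is therefore not shown to be unchanged. Positions and transcript lengths (1 principal transcript per gene) came from GENCODE M21, near copies from blastn 2.17.0, and start windows from RefSeq.

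Genes were named by rule: the 8 highest and 5 lowest of each subunit, paralogs, Diamond-Blackfan genes, the 5 most and least variable members, up to 12 genes past the threshold in each direction, the highest members of each list, and the 10 genes of highest and lowest correlation. The members, lists and rules were chosen with earlier results of these data known. Results for some genes are not reported here.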

Additional observations from a re-analysis of the deposited data

Results flagged for a closer look

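Levels of 79 genes and 2 summary values were searched for a library far from the other 3, and 4 of 81 were found, where chance gives about 1 in 20. Rps18 was at 3770 CPM in library 4, against 3376, 3391 and 3387 in libraries 1 to 3. Rpl10a was at 1405 CPM in library 4, against 1336, 1336 and 1325. Rpl22 was at 959 CPM in library 2, against 1179, 1145 and 1170 in libraries 1, 3 and 4. Rps12 was at 585 CPM in library 3, against 642, 646 and 640. No cause was tested.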

How the results depend on the processing

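The numbers of genes called depended on the test, on the split and on single libraries. For cells split by the whole ribosomal protein share, DESeq2 called 85 genes higher and 85 lower, thinned cells gave 3 and 1, no filter on low counts 6 and 9, no replicate block 1 higher and a split into 4 parts 1 higher, where edgeR called 0 and 0, as it did without each library in turn (0 to 0 higher and 0 to 0 lower). Of the small-subunit genes, DESeq2 called 30 and the split lowered by same-numbered cells 0, against 18. The latter split was added after seeing the data. With a library left out the count ran from 0 to 13. Of the large-subunit genes, DESeq2 called 33, a split at the median 7 and the split lowered by same-numbered cells 0, against 21, and with a library left out the count ran from 0 to 22. The fit with no replicate block gave 20 small-subunit and 18 large-subunit genes. The share was 20.3% and the ratio 0.852 with the 6 ribosomal proteins outside the symbol rule. With a library left out, the share ran from 18.4% to 18.7% and the ratio from 0.916 to 0.929, and their other alternatives moved them by less than 1 SD. No called gene changed direction in any alternative run. What lies behind the other changes was not tested. Fewer libraries leave fewer sums to estimate the spread, and depth limits what is said of genes with few counts, such as Rpl24, Rpl36al and Rpl7l1.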
